A study of Mus musculus with 8 samples.

Results

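The genes described here encode the cytosolic translation initiation factors, the kinases that phosphorylate eIF2, and the 4E-BPs that restrain the cap-binding protein eIF4E. They were taken as every protein-coding feature whose symbol begins with Eif in the authors' deposited table of 49584 features. The 3 sex-linked genes Eif2s3x, Eif2s3y and Eif1ax were left out, which gave 52 genes. Of the 52, 51 had at least 1 count and 50 passed a filter on low counts and were tested. Eif4e1b, an eIF4E paralog known from oocytes, had 0 counts in all 8 libraries, for which the limit of a zero count was 0.109 to 0.142 CPM (counts scaled to a fixed library size) of the library total. Eif4ebp3, the 4E-BP gene with the fewest counts here, had 3 to 5 counts in the control libraries and 4 to 8 in the knockout libraries.

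Initiation starts when eIF2, loaded with GTP and initiator tRNA, joins the small ribosomal subunit together with eIF1, eIF1A, eIF3 and eIF5. The cap-binding complex of eIF4E, the scaffold eIF4G and the helicase eIF4A then brings the subunit to an mRNA, and 4E-BPs compete with eIF4G for eIF4E unless mTORC1 phosphorylates them. Kinases that sense stress phosphorylate eIF2, which blocks its recycling by the exchange factor eIF2B, lowers general initiation and favours translation of mRNAs such as Atf4. This pathway is known to be activated in heart muscle by defects of mitochondrial gene expression.

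Total RNA had been sequenced from crude mitochondria of mouse heart, 4 libraries per group. Controls are L/L in the titles (Tefm +/+ in the genotype field), and knockouts are L/L, cre (Tefm -/-). In the knockouts an exon of Tefm, the mitochondrial transcription elongation factor, flanked by loxP sites was removed by cre driven from the promoter of muscle creatine kinase, which is active in cardiac and skeletal muscle. The series describes 4 mice per group. The labels used here give no age or strain. Tefm itself had 106 to 144 counts in the controls and 166 to 245 in the knockouts, with a log2 fold change of 0.14 (SE 0.11, adjusted p = 0.324, edgeR), so the whole-gene count did not separate the groups. That count spans exons outside the excised one and does not check the genotype, and the words control and knockout below follow the labels.

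Library totals were 21108165 to 27403415 counts, and transcripts of mitochondrial DNA took 72.3 to 74.0% of them in the controls and 59.3, 44.2, 38.7 and 43.1% in knockouts 1 to 4. Nuclear counts were 6825329 to 7596951 in the controls and 10331611 to 13204546 in the knockouts. Values below are CPM after scaling with edgeR's TMM factors, and "rose" and "fell" mean an adjusted p under 0.05 in edgeR's quasi-likelihood test over 17891 genes (Benjamini-Hochberg). When only library totals were used for scaling, the median log2 change of all genes moved from -0.015 to 0.97, and 96.7% rather than 52.2% of called genes were higher. Relative to that median, all 50 tested genes kept the side they had with TMM scaling, 40 above and 10 below. A change of scaling moves all genes by nearly the same amount, so this result was largely fixed in advance and does not check the scaling. The 6 cardiomyocyte markers summed to 14366 to 15166 CPM in the controls and 6645 to 10312 in the knockouts, and 4 of them fell and 1 rose. Leukocyte markers summed to 74.1 to 107 against 54.8 to 82.3 CPM, endothelial markers to 309 to 326 against 269 to 298, mural markers to 520 to 541 against 467 to 513, fibroblast markers to 221 to 232 against 200.1 to 351 and erythroid markers to 182 to 457 against 172 to 905. The 4 adipocyte markers summed to at most 0.422 CPM, and no marker of any list was at 0 throughout. The part of these shifts in the changes below was not tested, and in such bulk RNA fewer cells of a type and less RNA per cell cannot be told apart, nor can RNA content and what copurifies with mitochondria.

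Of the 50 tested genes, 33 rose, 3 fell and 14 did not pass, whereas 48 were higher and 0 lower with library totals alone. Across all genes tested, 26.1% were called higher and 23.9% lower, and the counts by role below stand beside these shares. The median log2 change of the 50 was 0.44, against -0.015 for all genes tested and 0.006 for the 13128 nuclear protein-coding genes tested. In 32 genes all knockout libraries lay above all controls, a pattern found in 23.9% of genes, and in 4 they lay below, found in 21.5%. Those 4 were Eif4e, Eif4ebp2, Eif4a2 and Eif4e3. The 8 genes that rose at least 2-fold, a size reached by 7.32% of genes, were Eif4ebp1, Eif3c, Eif1a, Eif4a1, Eif5a2, Eif3a, Eif2s2 and Eif6. Together the 52 genes took 0.346, 0.343, 0.350 and 0.340% of nuclear counts in controls 1 to 4 and 0.447, 0.510, 0.483 and 0.492% in knockouts 1 to 4. The plot of log2 changes by role shows where the 3 genes that fell sit among their partners.

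**Figure D1:**
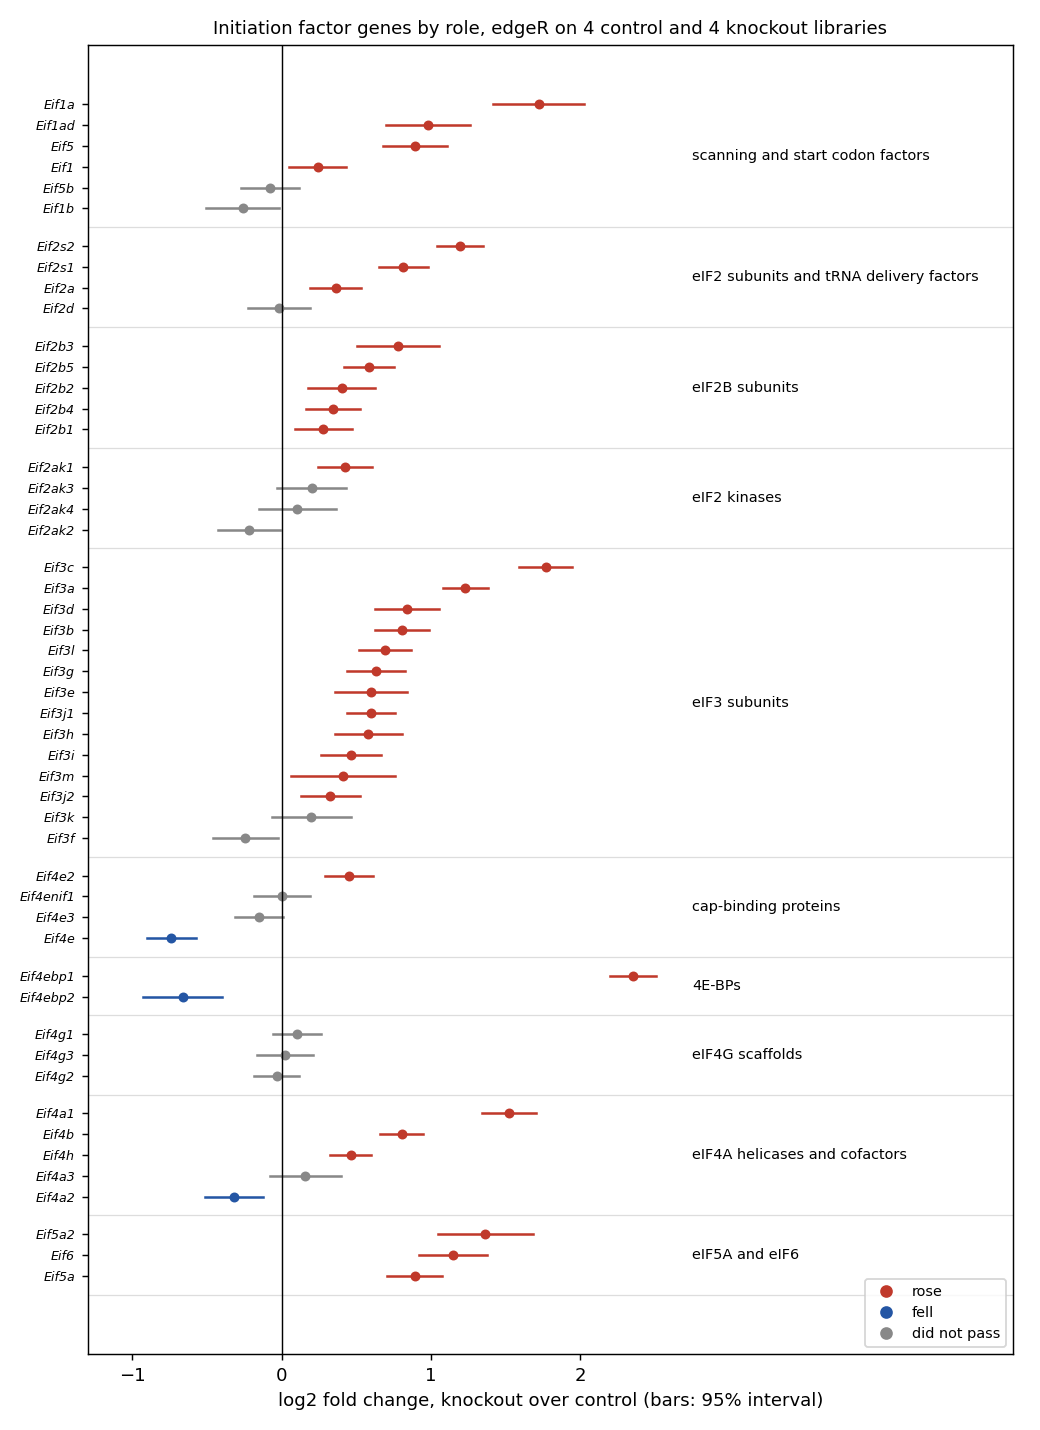
Log2 fold change of each tested initiation factor gene, knockout over control, grouped by role (edgeR, 4 libraries per group, bars give the 95% interval). All 5 eIF2B genes and 12 of 14 eIF3 genes lie to the right of 0 and passed the test, the 3 eIF4G genes lie around 0, and Eif4ebp1 lies far from Eif4ebp2.

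The 4E-BP genes moved in opposite directions. Eif4ebp1 (chr8:27260329-27276674 in GRCm38, plus strand) encodes 4E-BP1, the best studied inhibitor of eIF4E and a direct substrate of mTORC1. Its level was 16.6, 17.5, 17.5 and 16.7 CPM in controls 1 to 4 and 87.1, 85.3, 93.6 and 83.9 CPM in knockouts 1 to 4. Every knockout library was thus far above every control, and the libraries within each group lay close together. The rise was 5.12-fold (log2 2.36, SE 0.07, 95% interval 2.20 to 2.51, adjusted p = 2.32e-11, edgeR). Per kilobase of exons Eif4ebp1 was at 7.79 ± 0.22 CPM in the controls and 39.8 ± 1.9 in the knockouts (SD, n = 4). By each gene's own counts this moved it from place 10 to place 1 among the 50 genes. Eif4a1 (4334 exon bases) with its near-identical pseudogenes, described below, held 34475 counts in the knockouts. Eif4ebp1 (2196 exon bases) held 11132, so place 1 depends on how reads of copies were counted. The authors' deposited table gives the log2 fold change of Eif4ebp1 as 2.36.

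Eif4ebp2 (chr10:61428491-61452661, minus strand) encodes 4E-BP2, the form known to predominate in brain. It was at 5.90, 4.66, 5.70 and 5.93 CPM in the controls and 3.29, 3.24, 3.78 and 3.69 CPM in the knockouts, so the groups did not overlap. The log2 change was -0.66 (SE 0.12, adjusted p = 0.000514, edgeR), and it turned to 0.34 (adjusted p = 0.143) with library totals as the only scaling. A ratio of 2 genes within a library does not depend on scaling between libraries. The count of Eif4ebp1 per count of Eif4ebp2 was 2.80, 3.74, 3.07 and 2.82 in the controls and 26.3, 26.2, 24.7 and 22.7 in the knockouts, 8.08-fold higher (exact permutation test, two-sided, p = 0.0286, adjusted p = 0.0408). With 4 libraries against 4 and 70 relabelings this is the smallest p the test can give, and 10 such pairs were compared, with Benjamini-Hochberg adjustment. The CPM of both genes had already separated the groups, in opposite directions. The p of this ratio was therefore fixed in advance and adds no support.

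The cap-binding genes also diverged. Eif4e (chr3:138526179-138559696, plus strand) encodes eIF4E, the protein that holds the cap and the target of the 4E-BPs. Its level was 47.8, 43.1, 48.5 and 44.1 CPM in the controls and 28.7, 24.7, 27.5 and 29.1 CPM in the knockouts. No knockout library reached the lowest control. The log2 change was -0.74 (SE 0.08, adjusted p = 2.44e-06, edgeR), the largest fall among the 50 genes with TMM scaling, and it turned to 0.25 (adjusted p = 0.145) with library totals alone. Eif4e2 (chr1:87213914-87240488, plus strand) encodes 4EHP, a homolog that binds the cap without joining eIF4G and is known as a repressor. It was at 24.0, 20.3, 23.9 and 23.4 CPM in the controls and 29.7, 32.5, 31.1 and 31.9 CPM in the knockouts, again without overlap. It rose by 0.45 on the log2 scale (SE 0.07, adjusted p = 0.000196, edgeR).

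Eif4e3, a further cap-binding paralog, had 20.6 to 22.6 CPM in the controls and 18.0 to 20.4 in the knockouts. Its log2 change of -0.15 (95% interval -0.32 to 0.01, adjusted p = 0.105, edgeR) did not pass although the groups did not overlap. Eif4enif1 encodes 4E-T, which carries eIF4E to the nucleus and to processing bodies, and its log2 change was 0.00 (95% interval -0.18 to 0.19). Per count of Eif4e, Eif4e2 was 2.29-fold higher in the knockouts, Eif4e3 1.5-fold and Eif4ebp1 8.53-fold (exact permutation tests, each p = 0.0286, adjusted p = 0.0408). For Eif4e2 and Eif4ebp1 this p was fixed in advance. Their CPM in the knockouts lay above all controls and that of Eif4e below all controls. The Eif4ebp1 count was 0.348 to 0.407 per count of Eif4e in the controls and 2.88 to 3.46 in the knockouts. More reads thus came from Eif4ebp1 than from Eif4e in every knockout library and fewer in every control, with no correction for transcript length.

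**Figure D2:**
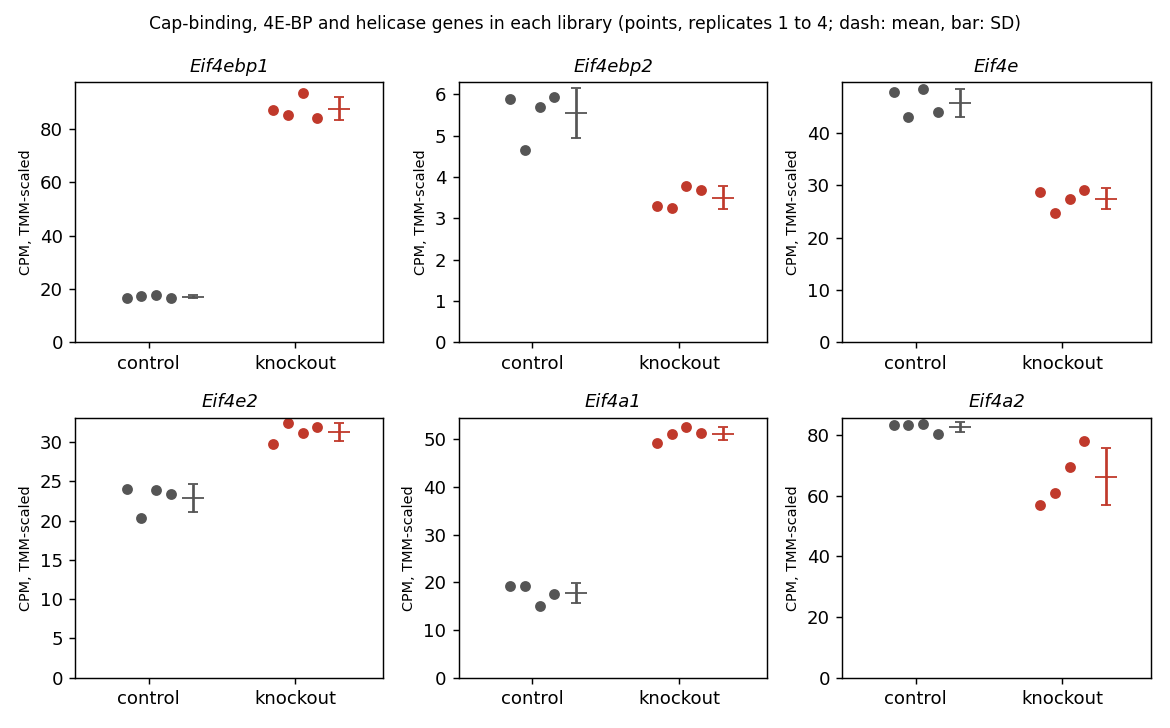
TMM-scaled CPM of 6 cap-binding, 4E-BP and helicase genes in each library (points), with the mean and SD of the 4 libraries of a group beside them. Eif4ebp1, Eif4e2 and Eif4a1 are higher in every knockout library and Eif4ebp2, Eif4e and Eif4a2 are lower, and Eif4a2 spreads from 57.0 to 77.9 CPM among the knockouts.

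None of the 3 eIF4G genes, which encode the scaffold of the cap-binding complex, passed edgeR's test, none had an unadjusted p under 0.05, and DESeq2 called none. Eif4g1 was at 161 ± 6 CPM in the controls and 173 ± 12 in the knockouts (SD, n = 4), a log2 change of 0.10 (95% interval -0.06 to 0.27). Eif4g2 encodes DAP5, a relative without an eIF4E site, and its log2 change was -0.03 (95% interval -0.18 to 0.12). The log2 change of Eif4g3 was 0.02 (95% interval -0.17 to 0.21). With library totals alone their log2 changes were 1.11, 0.96 and 1.03, near the median of all genes in that fit. Per kilobase of exons and by own counts, Eif4g2 and Eif4g1 held places 1 and 2 in the controls, at 24.6 and 22.1 CPM. They held places 5 and 6 in the knockouts. The ratios of Eif4g2 to Eif4g1 and of Eif4g1 to Eif4g3 did not pass (exact permutation tests, p = 0.0857 and 0.314, adjusted p = 0.0952 and 0.314).

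The 2 paralogs of the eIF4A helicase, which unwinds the 5′ leader of mRNAs, parted as the 4E-BPs did. Eif4a1 (chr11:69666936-69672423, minus strand) was at 19.2, 19.3, 14.9 and 17.6 CPM in the controls and 49.2, 51.2, 52.6 and 51.4 CPM in the knockouts. All knockout libraries were well above the controls. It rose 2.88-fold (log2 1.52, SE 0.08, adjusted p = 5.76e-09, edgeR). Eif4a2 (chr16:23107444-23114136, plus strand) was at 83.4, 83.4, 83.8 and 80.3 CPM in the controls and 57.0, 60.7, 69.5 and 77.9 CPM in the knockouts. Knockout 4 came close to the lowest control, and the groups did not overlap. The log2 change was -0.32 (SE 0.09, adjusted p = 0.00977, edgeR) and turned to 0.69 (adjusted p = 0.000572), called higher, with library totals alone. The count of Eif4a1 per count of Eif4a2 was 0.179 to 0.231 in the controls and 0.659 to 0.864 in the knockouts, 3.63-fold higher (exact permutation test, p = 0.0286, adjusted p = 0.0408). The CPM of both genes had already separated the groups in opposite directions, so this p was fixed in advance. With its near-identical pseudogenes, described below, Eif4a1 held 6402 counts in the controls and 34475 in the knockouts. Eif4a2 held 6301 and 8469, so the level of this ratio depends on how reads of copies were counted.

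Eif4b and Eif4h encode cofactors that stimulate eIF4A. Eif4b (chr15:102073773-102097173, plus strand) was at 65.1, 64.0, 61.1 and 58.5 CPM in the controls and 105, 108, 110.4 and 110.4 CPM in the knockouts, above all controls. It rose by 0.80 on the log2 scale (SE 0.07, adjusted p = 3.26e-07, edgeR), and Eif4h rose by 0.46 (adjusted p = 4.21e-05). Eif4a3, a helicase of the exon junction complex rather than of initiation, had a log2 change of 0.16 (95% interval -0.08 to 0.40, adjusted p = 0.249, edgeR) and did not pass.

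Eif4a1 and Eif2s2 each have a processed pseudogene of nearly the same sequence with more counts than the gene itself. The following stretches of GENCODE M21 (GRCm38) run 5′ to 3′ on the sense strand around the only mismatch between the Eif4a1 coding sequence and Eif4a-ps4, and around the first of 5 mismatches between the Eif2s2 coding sequence and Gm9892. The capital marks the differing base, G534A in the first pair and T66C in the second, counted from the first coding base and given as gene, position, pseudogene. Eif4a-ps4 is matched at chr1:60704445-60704485, plus strand, and Gm9892 at chr8:52196971-52197011, minus strand.
Eif4a1: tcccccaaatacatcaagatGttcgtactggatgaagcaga
Eif4a-ps4: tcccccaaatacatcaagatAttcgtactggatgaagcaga
Eif2s2: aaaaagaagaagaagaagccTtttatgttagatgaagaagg
Gm9892: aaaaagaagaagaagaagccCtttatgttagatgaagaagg

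Eif4a-ps4 matched Eif4a1 over 1218 bases at 99.9% identity, with 1 mismatch and no gap. It held 5046 counts in the controls and 27965 in the knockouts, against 1356 and 6509 for Eif4a1 itself. Gm9892 matched Eif2s2 over 992 bases at 99.5% identity and held 1805 and 9764 counts, against 1028 and 3932 for Eif2s2. The sources used here do not state how reads that fit both places were counted, so the levels of these genes are uncertain. Near-identical copies were found for 14 genes. When the counts of pseudogenes at 95% identity or more over at least 200 bases were added to their gene, a grouping chosen after the matches were seen, the log2 change went from 1.52 to 1.69 for Eif4a1 and from 1.20 to 1.53 for Eif2s2. It went from -0.74 to -0.62 for Eif4e with Gm7327 added and from 0.41 to 0.33 for Eif3m with Gm7658 added, which held 3416 and 7087 counts against 284 and 627 for Eif3m. Eif3j1 and Eif3j2, which nearly match each other, gave 0.48 together, against 0.60 and 0.33 alone. No call among the genes tested this way changed. Copies annotated as protein coding were not added, among them Gm5580, which held 593 and 1098 counts against 502 and 928 for Eif4a3, Gm20696, which shares 219 bases with Eif4e3 and held 196 and 270 counts, and Gm8332 for Eif1a, with 0 counts.

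**Figure D3:**
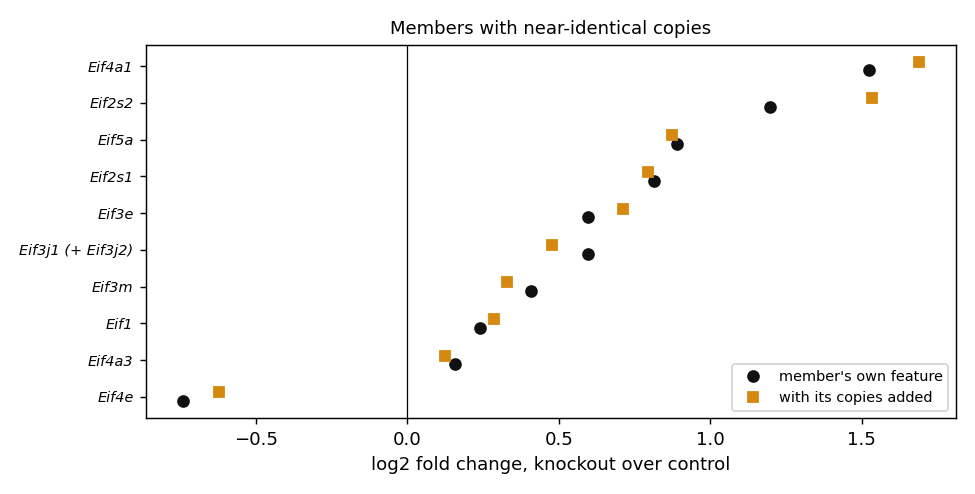
Log2 fold change, knockout over control, of 10 genes with near-identical copies that were added, from the gene's own counts (circles) and with the counts of its pseudogene copies, or of Eif3j2 for Eif3j1, added (squares). The points of each gene lie on the same side of 0, with the widest gap at Eif2s2, from 1.20 to 1.53.

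The eIF2 subunit genes examined and those of the exchange factor were higher in the knockouts nearly throughout. Eif2s3x and Eif2s3y, the sex-linked eIF2 subunit genes, were left out by the rule and not examined. Eif2s2 (chr2:154871410-154892935, minus strand) encodes the beta subunit of eIF2 and was at 12.4, 13.8, 14.1 and 13.7 CPM in the controls and 30.7, 31.9, 30.5 and 30.6 CPM in the knockouts. The groups were widely apart. It rose 2.29-fold (log2 1.20, SE 0.07, adjusted p = 1.15e-08, edgeR). Eif2s1 (chr12:78861819-78887010, plus strand) encodes the alpha subunit, which carries the serine that the eIF2 kinases phosphorylate. It was at 11.8, 11.1, 12.6 and 11.8 CPM in the controls and 19.8, 22.0, 20.2 and 21.0 CPM in the knockouts, and rose by 0.82 on the log2 scale (SE 0.08, adjusted p = 9.76e-07, edgeR). Every knockout library exceeded every control. Of 2 factors that can deliver initiator tRNA without eIF2, Eif2a rose by 0.36 (adjusted p = 0.00163, edgeR) and Eif2d had a log2 change of -0.02 (95% interval -0.22 to 0.19).

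All 5 eIF2B genes rose, by 0.28 (Eif2b1) to 0.78 (Eif2b3) on the log2 scale, with no overlap between groups, although Eif2b1 did not pass without control 2 (adjusted p = 0.0504, edgeR). Eif2b5 (chr16:20498817-20509323, plus strand), which encodes the catalytic epsilon subunit, was at 13.96, 15.5, 16.5 and 14 CPM in the controls and 22.8, 23.0, 21.1 and 23.0 CPM in the knockouts. Its log2 change was 0.59 (SE 0.08, adjusted p = 3.07e-05, edgeR). Eif2b3 (chr4:117019402-117087306), which encodes the gamma subunit, was at 3.21, 2.78, 2.77 and 2.54 CPM in the controls and 4.36, 4.86, 4.99 and 5.17 CPM in the knockouts, with an adjusted p of 0.000171 (edgeR). The lowest knockout library was above the highest control in both genes. Per kilobase of exons the 5 subunits did not share 1 level in the controls, where Eif2b5 was at 5.78 CPM, Eif2b4 at 4.01, Eif2b1 at 2.80, Eif2b2 at 2.64 and Eif2b3 at 0.433. The union of exons is 6520 bases for Eif2b3 and 1885 to 2599 for the others, so the distance of Eif2b3 depends on that length. Eif2b3 was also the lowest of them in CPM. In the knockouts they ran from 8.67 for Eif2b5 through 5.09 for Eif2b4, 3.49 for Eif2b2 and 3.40 for Eif2b1 to 0.743 for Eif2b3, so Eif2b1 and Eif2b2, which lay close in both groups, changed places.

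Of the 4 kinases of eIF2, 1 rose and 3 did not pass, a share of risers close to the 26.1% of all genes called higher. Eif2ak1 (chr5:143817788-143904251, plus strand) encodes HRI, the kinase known to relay mitochondrial stress through DELE1. It was at 16.3, 16.2, 13.9 and 14.6 CPM in the controls and 22.6, 20.1, 19.97 and 19.3 CPM in the knockouts. All knockout values lay above all control values, by a modest step. It rose by 0.42 on the log2 scale (SE 0.08, 95% interval 0.25 to 0.60, adjusted p = 0.00076, edgeR), a 1.34-fold change.

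Eif2ak2 (chr17:78852564-78882573, minus strand) encodes PKR, the kinase that binds double-stranded RNA. It was at 11.3, 11.5, 10.02 and 10.8 CPM in the controls and 9.02, 10.8, 9.09 and 8.44 CPM in the knockouts. The groups overlapped through knockout 2 alone, without which the log2 change was -0.30 (adjusted p = 0.0201, edgeR) instead of -0.22 (95% interval -0.43 to -0.01, adjusted p = 0.0769), and with library totals alone it was 0.78. Eif2ak3 (chr6:70844515-70905245, plus strand) encodes PERK, the kinase of the endoplasmic reticulum. It was at 6.90, 6.34, 5.81 and 6.08 CPM in the controls and 6.88, 7.67, 6.41 and 7.94 CPM in the knockouts, and the groups overlapped. Its log2 change was 0.20 (95% interval -0.03 to 0.43, adjusted p = 0.135, edgeR).

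Eif2ak4 (chr2:118388618-118475234, plus strand) encodes GCN2, the sensor of uncharged tRNA. Its level was 6.43, 5.66, 6.14 and 5.58 CPM in the controls and 6.12, 6.45, 7.59 and 5.39 CPM in the knockouts, with knockout 4 the lowest of the 8 libraries. The log2 change was 0.10 (95% interval -0.15 to 0.36, adjusted p = 0.495, edgeR). The count ratio of Eif2ak4 to Eif2ak1 differed by -0.33 on the log2 scale, which did not pass (exact permutation test, p = 0.0571, adjusted p = 0.0714). These are transcript levels and give no measure of kinase activity.

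The 14 genes of eIF3, the large complex that bridges the small subunit and eIF4G, included 12 that rose, 11 of them without overlap between groups. Eif3c (chr7:126546455-126566411, minus strand), a core subunit, was at 30.1, 29.9, 31.4 and 31.0 CPM in the controls and 119, 107, 94.5 and 96.6 CPM in the knockouts. The lowest knockout was above the highest control by a wide margin. It rose 3.41-fold (log2 1.77, SE 0.08, 95% interval 1.59 to 1.95, adjusted p = 1.3e-09, edgeR). Eif3a (chr19:60761117-60790658, minus strand), which forms the core of the complex with Eif3c, was at 60.0, 57.1, 61.9 and 64.3 CPM in the controls and 138, 143, 139 and 150.5 CPM in the knockouts. The values within each group were again close. It rose 2.35-fold (log2 1.23, SE 0.07, adjusted p = 8.19e-09, edgeR).

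The other 10 eIF3 genes that rose did so by 0.33 to 0.84 on the log2 scale, with Eif3d (0.84), a subunit that can itself bind certain caps, Eif3b (0.81), a scaffold of the peripheral module, and Eif3l (0.69) at the top. Eif3m, a small core subunit, was the least certain of them. It was at 3.69, 3.77, 4.32 and 3.19 CPM in the controls and 5.66, 5.96, 3.78 and 4.47 CPM in the knockouts, with knockout 3 inside the control range. Its log2 change was 0.41 (SE 0.16, adjusted p = 0.0499, edgeR), and it did not pass with DESeq2 (adjusted p = 0.0635) or when control 1, 2 or 4 or knockout 1 or 2 was left out (adjusted p 0.0889 to 0.146). The 2 eIF3 genes that did not pass were Eif3k, with a log2 change of 0.20 (95% interval -0.07 to 0.46), and Eif3f. Eif3f (chr7:108934417-108942951) encodes a core subunit known to bind mTOR in muscle. It was at 9.85, 12, 11.5 and 12.9 CPM in the controls and 9.21, 9.58, 10.99 and 9.23 CPM in the knockouts. Control 1 and knockout 3 brought the groups into overlap. Its log2 change was -0.24 (95% interval -0.46 to -0.03, adjusted p = 0.0594, edgeR), and it was 0.75 with library totals alone. Without control 1 it was -0.32 (adjusted p = 0.0224) and without knockout 3 it was -0.30 (adjusted p = 0.0326, edgeR).

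Per kilobase of exons the eIF3 genes spanned 0.600 CPM for Eif3e to 8.72 for Eif3c in the controls. Eif3c went to 29.7 ± 3.2 and Eif3a from 6.96 ± 0.35 to 16.3 ± 0.6 CPM per kilobase (SD, n = 4). By each gene's own counts these 2 core genes stood further above the rest in the knockouts. Eif3m (2590 exon bases) with its copy Gm7658 held 3700 counts in the controls and 7714 in the knockouts. Eif3c (3511 exon bases) held 2332 and 13156, so the order of the eIF3 genes depends on how reads of copies were counted. Eif3e, with 6719 exon bases in the union of its exons, was the lowest eIF3 gene per kilobase by own counts, though not in counts alone. It has 2 pseudogene copies, Eif3s6-ps1 and Eif3s6-ps2. Together these held 753 counts in the controls and 2101 in the knockouts, against 307 and 772 for Eif3e.

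**Figure D4:**
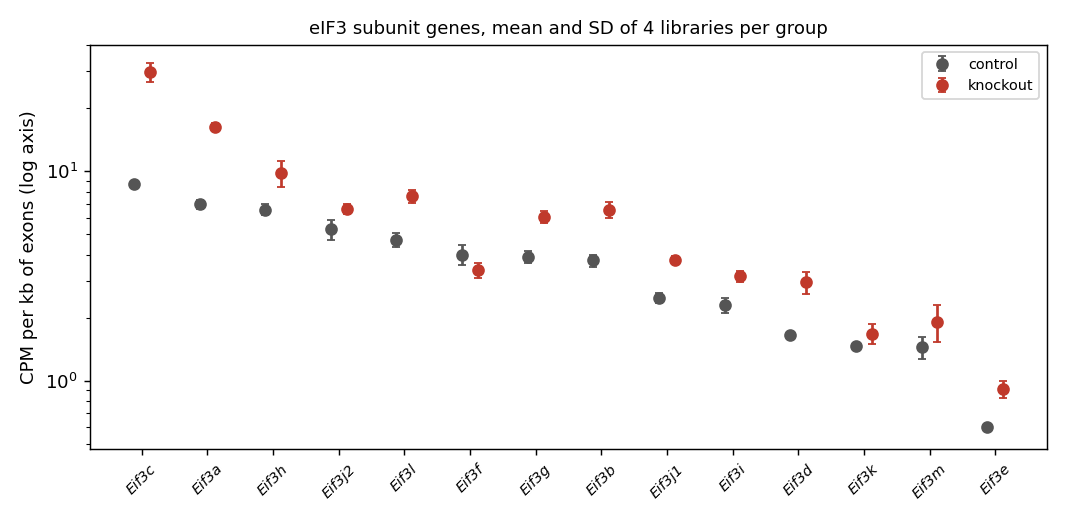
TMM-scaled CPM per kilobase of exons of the 14 eIF3 genes on a log axis, mean and SD of 4 libraries per group, ordered by the control mean. Counts are each gene's own, without copies such as Gm7658 of Eif3m. On these counts Eif3c and Eif3a stand highest in both groups and furthest apart between them. Eif3f is the only gene of the 14 whose knockout mean lies below its control mean with this scaling.

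In the group placed under scanning and start codon choice 4 of 6 genes rose. It is wider than that function, as it takes in Eif1ad, by its eIF1A-like domain, and Eif5b, which acts in subunit joining. Eif1a encodes eIF1A, which with eIF1 keeps the scanning complex open. The sex-linked gene Eif1ax was left out by the rule, so the values here cover Eif1a alone. Eif1a was at 7.75, 7.81, 6.92 and 7.28 CPM in the controls and 18.1, 30.9, 22.8 and 26.3 CPM in the knockouts. The knockouts were spread more widely than the controls and lay above all of them. Eif1a rose 3.3-fold (log2 1.72, SE 0.14, adjusted p = 2.86e-07, edgeR). Eif5 (chr12:111538016-111546752, plus strand) encodes the factor that triggers GTP hydrolysis by eIF2. It was at 46.5, 52.7, 49.8 and 49.3 CPM in the controls and 73.1, 99.3, 105 and 90.7 CPM in the knockouts, with knockout 1 the lowest of its group and above all controls. It rose by 0.89 on the log2 scale (SE 0.10, adjusted p = 5.9e-06, edgeR).

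Eif1ad, which encodes a protein with an eIF1A-like domain, rose by 0.98 (adjusted p = 3.02e-05, edgeR). Eif1, whose product guards start codon fidelity, rose by 0.24 (adjusted p = 0.0355, edgeR), a call that was lost without controls 2 or 4 or knockouts 3 or 4 (adjusted p 0.0519 to 0.121). Its paralog Eif1b had a log2 change of -0.26 (95% interval -0.50 to -0.02, adjusted p = 0.0716, edgeR), which was 0.73 with library totals alone. The count of Eif1 per count of Eif1b was 1.41-fold higher in the knockouts (exact permutation test, p = 0.0286, adjusted p = 0.0408). Eif5b, which joins the large ribosomal subunit, had a log2 change of -0.08 (95% interval -0.27 to 0.12) and 0.92 with library totals alone.

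The genes of eIF5A and eIF6 all rose. Eif6 (chr2:155819832-155826925, minus strand) encodes a factor that keeps the large subunit from joining too early. It was at 6.75, 7.18, 9.07 and 7.18 CPM in the controls and 16.4, 18.7, 16.4 and 15.1 CPM in the knockouts. The groups were clearly separate. It rose 2.21-fold (log2 1.15, SE 0.11, adjusted p = 9.13e-07, edgeR). Eif5a (chr11:69916714-69921958, minus strand) encodes the hypusine-bearing factor that helps ribosomes past stalls. It was at 46.1, 42.5, 46.8 and 42.9 CPM in the controls and 72.0, 94.1, 82.6 and 81.7 CPM in the knockouts, without overlap, and rose by 0.89 on the log2 scale (SE 0.08, adjusted p = 1.18e-06, edgeR). Its paralog Eif5a2 rose by 1.36 (SE 0.15, adjusted p = 4.17e-06, edgeR) from 2.31 ± 0.26 to 5.97 ± 0.90 CPM (SD, n = 4). The count of Eif5a per count of Eif5a2 was lower by 0.47 on the log2 scale in the knockouts (exact permutation test, p = 0.0286, adjusted p = 0.0408). It no longer passed in 6 of the 8 tests that left out a library, those without controls 1, 3 or 4 or knockouts 1, 2 or 3 (adjusted p 0.0714 to 0.0816), and was -0.31 without knockout 1.

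**Figure D5:**
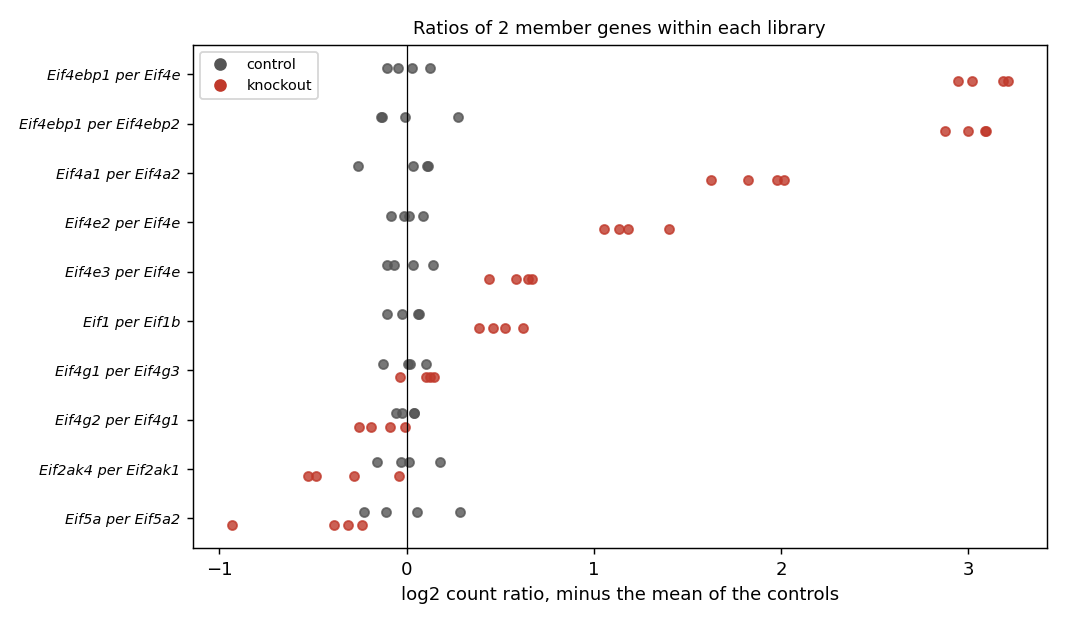
Log2 ratio of the counts of 2 genes within each library, minus the mean of the 4 controls, for the 10 pairs compared (points are libraries). The knockout points of 7 pairs lie apart from the control points, by up to 3.09 on average for Eif4ebp1 per Eif4e, and those of the other 3 pairs overlap with the controls.

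Across the libraries the 33 genes that rose had median log2 values over the control mean of 0.66, 0.77, 0.62 and 0.66 in knockouts 1 to 4. Knockout 1, whose mtDNA share was nearest to the controls, had the smallest change of the 4 in 12 of the 33 (36.4%), against 41.2% of all 4669 genes that rose. Of the genes described here, 9 share exon bases with a protein-coding gene on the opposite strand, up to 19.0% of exon bases for Eif3j1 with Spg11. The others are Eif1ad, Eif2a, Eif2ak1, Eif2b4, Eif2d, Eif3m, Eif4a2 and Eif5b. The sources used here do not state whether strand was used in counting, so reads of such partners cannot be told apart there. On the same strand, Eif4ebp3 shares 67.3% of its exon bases with AC115631.1, and Eif4e3 shares part of its exons with Gm20696. How reads in those shared bases were counted is not stated either.

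RefSeq promoter sequences (GRCm38.p6) were found for 40 of the 52 genes. Eif4ebp1, the gene that rose most, and Eif1a and Eif6 were not among the 40 and were not searched. The sequences found were searched on both strands, in the 250 bases before the start, for 3 motifs chosen after the changes were seen. TGATGNAA, the element bound by ATF4 with C/EBP proteins, was in 0 of 40 genes, against 3.91% of 27025 genes. TGACGTCA, the cyclic AMP response element, was in 0 of 40, against 1.77%. CACGTG, the palindromic E-box bound by MYC and TFE3, was in 9 of 40, against 6.86% of genes. Of these 9, Eif4a1, Eif4h, Eif5a and Eif5a2 rose, Eif4e fell with TMM scaling, and Eif1b, Eif3f, Eif3k and Eif4g1 did not pass. Carriers of this motif therefore included genes in each class of outcome, as the promoters of a gene that rose and of one that did not pass show, with the motif in capitals, on the gene's strand. The Eif4a1 window is chr11:69672424-69672673 (minus strand) and the Eif3f window is chr7:108934165-108934414 (plus strand), and 0 annotated exons lie in either.
Eif4a1 promoter: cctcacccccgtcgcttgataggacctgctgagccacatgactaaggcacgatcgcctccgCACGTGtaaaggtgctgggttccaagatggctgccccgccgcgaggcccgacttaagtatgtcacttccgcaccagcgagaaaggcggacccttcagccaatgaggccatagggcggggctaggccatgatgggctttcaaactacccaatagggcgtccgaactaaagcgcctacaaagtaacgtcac
Eif3f promoter: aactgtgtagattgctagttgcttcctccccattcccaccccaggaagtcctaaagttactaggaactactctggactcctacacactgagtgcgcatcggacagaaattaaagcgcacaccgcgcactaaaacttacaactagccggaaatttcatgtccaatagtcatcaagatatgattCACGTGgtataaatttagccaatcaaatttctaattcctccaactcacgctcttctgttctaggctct

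Partners of these genes were read from lists drawn up by function, with earlier results of these data known, and their counts stand beside 26.1% of all genes called higher and 23.9% lower. Of 13 genes that act on or after eIF2 phosphorylation 9 rose and 4 fell (median log2 change 0.49). Trib3, a pseudokinase induced by ATF4, rose 66.3-fold, and Atf4, whose mRNA is translated when eIF2 is phosphorylated, rose 6.33-fold from 34.2 ± 3.0 to 216 ± 26 CPM (SD, n = 4). Atf5 rose 6.15-fold and Ddit3, which encodes CHOP, rose 5.29-fold. The adjusted p of these 4 ranged from 2.32e-11 to 4.14e-08 (edgeR). Ppp1r15a, the inducible phosphatase subunit that reverses the phosphorylation, rose 4.74-fold and its constitutive counterpart Ppp1r15b rose 1.24-fold. The genes upstream of HRI moved the other way, with a log2 change of -0.95 (adjusted p = 4.3e-07) for 0610009O20Rik, the symbol listed for Dele1, and of -0.50 (adjusted p = 0.00114, edgeR) for the protease Oma1, whereas with library totals alone these were 0.04 (adjusted p = 0.826) and 0.49 (adjusted p = 0.0187), the latter called higher.

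Of 22 genes of mTORC1 and eIF4E control 7 rose, 2 fell and 13 did not pass (median 0.13), a share of risers close to that of all genes, and with library totals alone 20 were higher and 0 lower. Sesn2, an inhibitor of mTORC1 induced by ATF4, rose 11.1-fold from 1.5 ± 0.25 to 16.8 ± 5.1 CPM (SD, n = 4). Mtor rose 1.78-fold, its inhibitory partner Akt1s1 1.81-fold, and Mknk1, a kinase of eIF4E, 2.12-fold, with adjusted p from 4.1e-08 to 3.14e-06 over the 4 (edgeR). Of 17 accessory initiation genes 10 rose, 3 fell and 4 did not pass (median 0.28). Abce1, which splits ribosomes for reuse, rose by 0.79 on the log2 scale, Pabpc4, a poly(A) binding protein, by 0.48 and Bzw2, a mimic of eIF5, by 0.45. Mtif2, the initiation factor of mitochondrial ribosomes, had a log2 change of -0.46, which turned to 0.52 (adjusted p = 0.00808, edgeR), called higher, with library totals alone. Of 11 elongation and termination genes 6 rose, 1 fell and 4 did not pass (median 0.32). Eef1a1, the elongation factor of most tissues, rose 4.48-fold, the release factor Etf1 2.15-fold and the translocase Eef2 1.77-fold. Eef1a2, the heart and muscle paralog of Eef1a1, had a log2 change of -0.46 (adjusted p = 0.0016, edgeR), which turned to 0.56 (adjusted p = 0.0037), called higher, with library totals alone.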

How the data were processed

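Whole-number counts per gene of 8 libraries had been deposited by the authors. The submitters' processing notes list the build mm10 and, without roles or parameters, the tools featureCounts, DESeq2 1.14.1 (R 3.3.2), Bowtie2, bedtools and SAMtools 1.3.1. The authors' deposited DESeq2 table also holds a mean normalised signal, log2 fold changes with standard errors, a test score and p-values, and was used for gene names, gene types and a comparison of signs, which agree for 50 of 50 tested genes.

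The counts were fitted with edgeR 4.0.16 in R 4.3.3 (TMM, filterByExpr with a minimum count of 10, glmQLFit and glmQLFTest, two-sided, Benjamini-Hochberg over 17891 genes, threshold 0.05, group as the only term). TMM factors were 0.689 to 0.733 in the controls and 1.03 to 1.61 in the knockouts. Limma 3.58.1 is loaded by edgeR, and DESeq2 1.42.0 served as an alternative. Intervals are at the 95% level. CPM per kilobase uses the union of exons in GENCODE M21. Near-identical copies were sought with blastn 2.17.0. Within-library ratios had 0.5 added to each count. The scripts were tested on simulated data that gave both groups the same mean profile, apart from genes altered on purpose. The simulation held no shift in the mtDNA share, so it does not check the scaling. The genes and lists were chosen with earlier results of these data known. Values per library are given for the kinases, the 4E-BPs and the 2 called genes with the smallest p of each other role, and from each list of partners the 4 called genes with the smallest p are named. Eif1a was given its role, Eif4a2, Eif3f and Eif3m their values per library, and Ppp1r15a, Ppp1r15b, Oma1 and 0610009O20Rik any mention outside this rule, after the counts were seen. No 2 libraries of a group agree within sampling noise (chi-square per degree of freedom at least 2.56, over all features with mtDNA included). Pairs of controls were at 2.56 to 4.00. Knockout 1 against knockouts 2, 3 and 4 was at 91.2, 140 and 96.6, and the latter among themselves at 8.55 to 15.7. Deviations from the group means gave same-number correlations of -0.014 to 0.050, within the range of -0.069 to 0.088 for different numbers. Libraries of the same number were thus no more alike than others, which cannot exclude that the animals were paired.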

Additional observations from a re-analysis of the deposited data

Results flagged for a closer look

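In 8 of 100 groups of 4 libraries, 1 library of a gene stood apart from the other 3 by more than Dixon's 95% limit, which chance passes in about 1 group in 20. Knockout 1 was the low library of Eif1ad, the eIF1A-domain gene, at 17.5 CPM, and the high library of Eif2b1, of the eIF2B alpha subunit, at 9.21 CPM. Knockout 3 was low for Eif2b5 at 21.1 CPM and for Eif2d at 7.21 CPM. Knockout 2 was high for Eif2s2 at 31.9 CPM and knockout 4 was high for Eif4g2 at 258 CPM. Among the controls, replicate 3 was low for Eif3i at 7.41 CPM and replicate 4 was low for Eif4a2 at 80.3 CPM. The causes were not tested.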

How the results depend on the processing

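Apart from the scaling by library totals, 30 to 33 genes were higher and 3 to 4 lower in every fit, DESeq2, other size factors, no filter, nuclear genes only, pooled copies, the replicate block and each library left out included. Of the 36 called genes, 33 kept their call with each library left out, and Eif1, Eif3m and Eif2b1 did not (Eif2b1 without control 2, adjusted p = 0.0504, edgeR). With library totals 48 genes were higher and 0 lower, and the lists gave 0 lower for eIF2 phosphorylation, 20 higher and 0 lower for mTORC1 and eIF4E control, 17 higher and 0 lower for accessory factors and 11 higher and 0 lower for elongation and termination. Log2 changes that turned positive there were Eif1b 0.73, Eif2ak2 0.78, Eif2d 0.97, Eif3f 0.75, Eif4a2 0.69, Eif4e 0.25, Eif4e3 0.85, Eif4ebp2 0.34, Eif4g2 0.96 and Eif5b 0.92. The mTORC1 list had 1 lower gene with DESeq2 and with no filter, and 1 to 3 with a library left out (1 without controls 1 or 2 or knockouts 3 or 4, 3 without control 4). With no filter Eif2d was 0.029 and Eif4g2 0.014, and with DESeq2's size factors in edgeR Eif4enif1 was -0.00091. With 1 library left out, Eif2d ranged from -0.065 to 0.019, Eif4enif1 from -0.046 to 0.075 and Eif4g3 from -0.021 to 0.081. The pair Eif5a per Eif5a2 was -0.37 with 5 added to each count (adjusted p = 0.0952, exact permutation test) and -0.55 to -0.31 with a library left out, passing in 2 of 8 such tests. Eif4g2 per Eif4g1 was -0.18 to -0.094 with a library left out and passed without knockout 1 at -0.18, and Eif2ak4 per Eif2ak1 was -0.43 to -0.27 and passed without knockout 3 at -0.43.

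The replicate block gave 32 higher and 3 lower, and lost Eif3m (adjusted p = 0.0587). Exchanging labels only within replicate numbers, the block allows no exact p under 0.125, so the pairs with log2 differences of 3.01, 3.09, 1.19, 0.58, 1.86, -0.47 and 0.50 cannot pass there. Depth limits Eif4e1b, and Eif4ebp3, Eif2b3, Eif5a2 and Eif3m rest on few counts. Eif4ebp3 also shares 67.3% of its exon bases with a gene on the same strand. The part of that overlap in its low count was not tested.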

Other observations

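Besides the protein-coding genes, 7 processed pseudogenes carry symbols that begin with Eif, and 6 of them were tested. With TMM scaling 5 rose in edgeR's quasi-likelihood test (Benjamini-Hochberg), beside 26.1% of all genes tested. Eif4a-ps4, the copy of Eif4a1, was at 63.2 to 71.0 CPM in the controls and 205 to 229 CPM in the knockouts, a log2 change of 1.73 (SE 0.07, adjusted p = 5.39e-10). Eif5al3-ps, a copy of Eif5a, was at 13.2 to 15.4 CPM in the controls and 21.1 to 30.0 CPM in the knockouts, a log2 change of 0.82 (SE 0.10, adjusted p = 1.82e-05). Eif3s6-ps1 and Eif3s6-ps2, which nearly match Eif3e, and Eif3s6-ps4 had log2 changes of 0.85, 0.71 and 0.46 (adjusted p = 8.85e-05, 0.000268 and 0.0201). Eif1-ps1 had 40 counts in the controls and 79 in the knockouts and did not pass (log2 change 0.22, adjusted p = 0.603), and Eif1-ps3 had 0 counts in every library. Whether these features are transcribed or receive reads of their parent genes was not tested.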
